A study of Saccharomyces cerevisiae with 8 samples.

Results

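Allele-specific RNA was compared inside 2 pools of haploid spores of a cross between the wild isolate SK1 and the laboratory strain S96, which is isogenic to the reference strain S288c apart from its mating type. The SK1 row of each transcript was set against its S96 row in the RNA of spore pools A and B, which are 2 of the 8 samples of the series. Of 7263 transcripts with a row for both alleles, 6689 were tested and 574 had too few reads. Each pool held spores of the S96 x SK1 hybrid, germinated, selected for a single mating type and grown overnight in YPD, a rich glucose medium. RNA of the diploid hybrid, cultures A and B in the same medium, was used where a result needed a comparison with cells that hold both alleles. Genomic DNA of the pools gave the share of cells with each allele.

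A haploid spore carries the SK1 or the S96 allele of a gene, never both, and it inherits a stretch of neighbouring sequence from the same parent. Within a pool, the RNA reads of an allele therefore follow the number of cells that carry it, the activity of its own promoter and transcript, and whatever in those cells differs with the allele, including feedback of the gene product on its own gene. In a diploid hybrid both alleles sit in the same nucleus and meet the same regulators. For an allele in a bulk pool, fewer cells and less RNA per cell cannot be told apart from RNA alone, and the DNA share was used to scale the RNA ratio.

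The libraries held 52202725 and 52600018 strain-specific read pairs on annotated transcripts in pools A and B, of which 49.9% and 50.2% were SK1 pairs. The hybrids held 45297678 and 48141742. Both pools carried the RNA of a cells: 6 of 6 markers of mating type a were above both hybrids, with summed levels of 62593 and 43248 normalised reads in pools A and B, against 531 and 748 in hybrids A and B. Of 4 alpha markers 0 were above both hybrids, with sums of 1566 and 1251 against 1369 and 1480 normalised reads. All 5 measured of 9 haploid markers were above both hybrids, with sums of 20392 and 21132 against 3456 and 3137.

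The SK1 allele had more strain-specific reads at 306 transcripts and the S96 allele at 484, after each allele was scaled by its DNA share around the transcript. Together these are 790 of 6689 transcripts, or 11.8%, with 4.57% on the SK1 side and 7.24% on the S96 side, by edgeR's quasi-likelihood test at a Benjamini-Hochberg false discovery rate (FDR) under 0.2 and a fold above 1.5. The split depends on the mapping bias added to the DNA share: without that correction 475 transcripts were called for SK1 and 370 for S96, and the median log2 ratio of all transcripts moved by 0.11. Ratios are given as log2 of SK1 over S96 throughout, so a negative value means more S96 RNA. Unlike in the study, differences in allele length were not corrected, since SK1 transcript lengths were not available. Whether reads of 1 allele were assigned less often than those of the other was not tested. The median called ratio was 1.03 on the SK1 side and -1.10 on the S96 side. A fold above 2 was reached by 159 SK1 and 275 S96 calls, and a fold above 8 by 33 and 55.

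Of the 790 called transcripts, 786 had the same direction in both pools. This is not independent of the call, which used both pools, and among all tested transcripts 64.1% had the same direction. Pools A and B differed by a median of 0.41 in the scaled log2 ratio, and by 0.30 over the 4673 transcripts with at least 1000 reads per pool. Without pool A 396 transcripts were called, and without pool B 582. In these fits the remaining pool was assumed to vary like the hybrids, whose libraries lent their spread. With each pool scaled by its own DNA share, 441 were called. The labels name the pools A and B only. The p-values rest on the spread between these 2 pools, which edgeR estimated with information shared over all transcripts. Each SE was derived from the F statistic of that test. A small p-value or SE therefore does not show that the 2 pools agreed closely at that transcript.

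**Figure D1:**
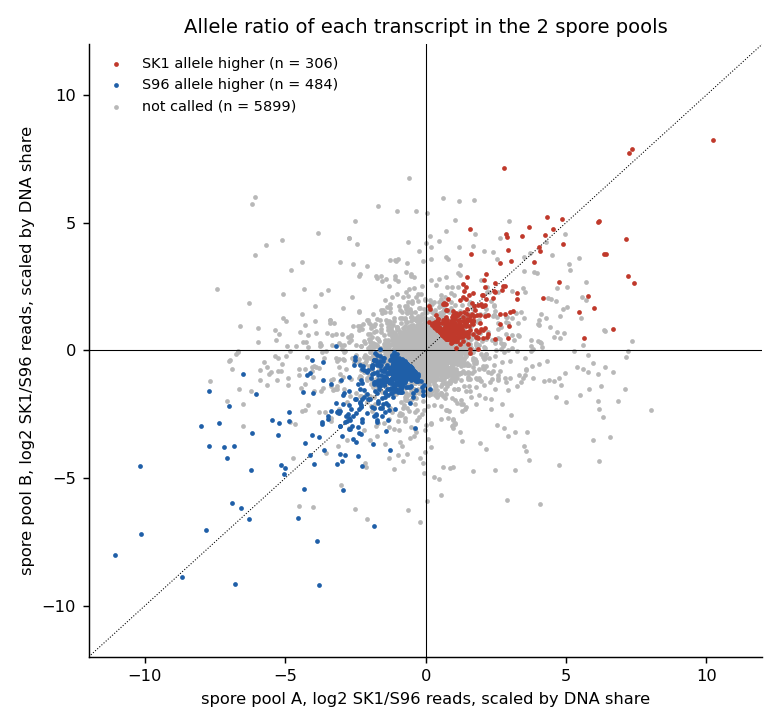
Log2 ratio of SK1 to S96 reads of each tested transcript in spore pool A (x axis) and spore pool B (y axis), scaled by the DNA share of pool A, with a pseudocount of 1. Except for 4 called transcripts, the 306 called for SK1 (red) lie in the upper right and the 484 called for S96 (blue) in the lower left. The 5899 others are in grey and the dotted line marks equality of the pools.

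The phosphate transporter gene PHO84, which encodes the high-affinity inorganic phosphate carrier of the plasma membrane, had far more S96 than SK1 RNA in the pools. It had 1535 SK1 and 12352 S96 reads in pool A, and 542 SK1 and 10667 S96 reads in pool B. The scaled log2 ratio was -3.15 in pool A and -4.43 in pool B, and -3.78 in the fit (SE 0.20, adjusted p 6.58e-20), a 13.7-fold difference. The hybrids showed no such lead of S96. SK1 led in hybrid A, with 744 SK1 and 487 S96 reads (log2 ratio 0.61), and hybrid B was level with 604 and 613. The ratio of the pools minus that of the hybrids was -4.08 (SE 0.37, adjusted p 9.01e-05). CUT281, a cryptic unstable transcript on the opposite strand that overlaps PHO84, had 1325 SK1 and 4511 S96 reads in pool A and 1386 and 2056 in pool B (log2 ratio -1.31, SE 0.25, adjusted p 0.000161). It was looked up after its values were seen. The libraries kept the strand of the RNA.

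Among 24 tested genes of phosphate uptake and storage, 1 was called for SK1 and 1 for S96, or 8.33% against 11.8% of all transcripts. The SK1 call was PHO5, the secreted acid phosphatase, with 1752 SK1 and 1174 S96 reads in pool A and 1688 and 1683 in pool B. The log2 ratio was 0.79 (SE 0.27, adjusted p 0.0542), but the adjusted p was 0.85 without pool A and 0.41 without pool B, and 12.3% of the 50-base words of the gene recur in the genome. The median log2 ratio of the list was 0.08, against -0.04 over all tested transcripts. The other 22 members were not called.

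CAN1, the arginine permease of the plasma membrane, also had more S96 RNA in the pools. It had 1793 SK1 and 9584 S96 reads in pool A and 1507 and 7682 in pool B, with a log2 ratio of -2.32 (SE 0.17, adjusted p 3.75e-15). The pools agreed closely at -2.36 and -2.29. No SNP of the cross is listed within the gene in R64, so the position of the bases that told its alleles apart was not found. In the hybrids CAN1 had few reads, 105 SK1 and 102 S96 in hybrid A and 76 and 140 in hybrid B. The pool ratio minus the hybrid ratio was -1.91 (SE 0.33, adjusted p 0.0527), and this call was lost without pool A. It was also lost with each pool's own DNA share (adjusted p 0.22).

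The stretches before PHO84, CAN1, AMN1 and MAL33 are shown because PHO84 and CAN1 differed between pools and hybrids, AMN1 was level in the hybrids, and MAL33 leaned to SK1 in pools and hybrids alike. Each is the 250 bases before the annotated transcript start in the S288c reference build R64, 5′ to 3′ on the strand of the gene. PHO84 lies at chrXIII:25854-26103 on the minus strand. No SNP of the cross falls in its window, although 22 SNPs fall in the gene. Capitals mark a match to CACGTT on either strand, a core that the phosphate regulator Pho4 binds, whose first base lies 209 bases before the transcript start. CAN1 lies at chrV:33710-33959 on the minus strand. Its capitals mark 3 matches to GATAAG, the core bound by GATA factors of nitrogen regulation, and the only SNP of the window lies 74 bases before the start. Capitals in the other windows, chrII:556030-556279 for AMN1 and chrII:800230-800479 for MAL33, both on the plus strand, mark SNP positions.
PHO84: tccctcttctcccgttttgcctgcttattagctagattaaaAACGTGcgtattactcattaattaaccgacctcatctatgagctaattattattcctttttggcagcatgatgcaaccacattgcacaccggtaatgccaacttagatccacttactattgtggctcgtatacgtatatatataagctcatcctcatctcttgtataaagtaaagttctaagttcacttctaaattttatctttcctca
CAN1: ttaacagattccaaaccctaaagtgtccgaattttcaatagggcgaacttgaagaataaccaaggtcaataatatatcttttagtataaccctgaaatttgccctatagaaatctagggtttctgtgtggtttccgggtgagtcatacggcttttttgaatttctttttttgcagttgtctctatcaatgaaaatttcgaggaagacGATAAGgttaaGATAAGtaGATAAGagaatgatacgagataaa
AMN1: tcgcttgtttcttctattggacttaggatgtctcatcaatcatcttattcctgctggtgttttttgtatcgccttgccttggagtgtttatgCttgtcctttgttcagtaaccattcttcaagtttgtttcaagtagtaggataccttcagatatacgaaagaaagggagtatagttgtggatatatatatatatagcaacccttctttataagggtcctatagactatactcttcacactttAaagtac
MAL33: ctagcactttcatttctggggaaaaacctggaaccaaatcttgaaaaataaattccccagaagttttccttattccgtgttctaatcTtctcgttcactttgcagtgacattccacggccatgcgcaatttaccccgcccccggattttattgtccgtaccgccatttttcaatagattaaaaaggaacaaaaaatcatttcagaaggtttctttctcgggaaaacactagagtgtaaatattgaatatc
Searched on both strands, CACGTT was found in 350 of 4374 such windows of coding transcripts (8.00%) and GATAAG in 512 (11.7%). The PHO84 window held 0 matches to CACGTG, the high-affinity Pho4 core found in 184 windows (4.21%). The letters are those of the S288c reference, and SK1 may hold insertions or deletions that SNP positions do not show.

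AMN1, which encodes an antagonist of mitotic exit whose alleles are known to affect daughter cell separation, had more S96 RNA. It had 3590 SK1 and 5234 S96 reads in pool A and 1103 and 2562 in pool B. Scaled by a DNA share of 56.2% SK1, the log2 ratio was -1.24 (SE 0.21, adjusted p 2.00e-05). The hybrids held 542 SK1 and 615 S96 reads in hybrid A and 777 and 782 in hybrid B, and the pool ratio was not called as different from the hybrid ratio. Of 16 tested genes of daughter cell separation, 2 were called for SK1 and 1 for S96, or 18.75% against 11.8% of all transcripts, and 0 without the library term. The SK1 calls were SUN4, a cell wall protein of septation whose adjusted p was 0.39 with each pool's own DNA share, and PRY3, a wall-bound member of the CAP family with 6433 SK1 and 3032 S96 reads in pool A and 7689 and 3783 in pool B (log2 ratio 1.17, SE 0.16, adjusted p 3.19e-07). ROX1, the repressor of hypoxic genes, had 14914 SK1 and 10818 S96 reads in pool A and 9000 and 7475 in pool B. Its log2 ratio of 0.33 (SE 0.13, adjusted p 0.101) was under the fold threshold.

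Several of the largest ratios came from genes with almost no reads of the weaker allele. CTR9, a subunit of the Paf1 complex of transcription elongation, had 6278 SK1 reads and 1 S96 read in pool A and 2379 and 2 in pool B. This is a read ratio of 2886 SK1 to 1 S96 (exact 95% interval 987 to 13996, counting error only), at a DNA share of 72.3% SK1. Scaled by that share, the fitted fold was 1029. The hybrids had more S96 reads of CTR9, with 3746 SK1 and 100 S96 reads in hybrid A and 4372 and 25 in hybrid B. The difference of 3.84 between pool and hybrid ratio (SE 0.95) was not called by edgeR's test (adjusted p 0.39). MEH1, a subunit of the EGO complex on the vacuole, had 935 SK1 and 5 S96 reads in pool A and 1093 and 4 in pool B, although its annotated transcript does not contain the whole gene in R64. LDB18, a dynactin component, had 1890 and 135 reads in pool A and 2119 and 67 in pool B (log2 ratio 4.25, SE 0.37, adjusted p 1.49e-12). RPS8A, annotated as 1 transcript with YBL071C-B, had 104434 SK1 and 618 S96 reads in pool A and 183308 and 752 in pool B (log2 ratio 7.63, SE 0.10, adjusted p 7.53e-44). Its recurring 50-base words were not counted, and it is not part of the ribosomal protein list below.

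On the S96 side, MRM1, a methyltransferase of mitochondrial ribosomal RNA, had 5 SK1 and 6742 S96 reads in pool A and 69 and 10117 in pool B (log2 ratio -8.07, SE 0.32, adjusted p 1.53e-24). YOL159C-A, a small gene of unknown function, had 0 SK1 and 1040 S96 reads in pool A and 11 and 1491 in pool B. MTL1, a sensor of cell wall stress, had 16 SK1 and 1200 S96 reads in pool A and 10 and 956 in pool B. PMS1, a mismatch repair protein, had 8 SK1 and 1882 S96 reads in pool A and 76 and 1919 in pool B, at a DNA share of 35.1% SK1. TEF1, one of the genes of translation elongation factor EF-1 alpha, had 79 SK1 and 9032 S96 reads in pool A and 29 and 17615 in pool B, but 92.5% of its 50-base words recur in the genome, so its reads cannot be assigned with certainty. No SNP is listed within MEH1, LDB18, YOL159C-A or TEF1. CTR9, MEH1, LDB18, MRM1, YOL159C-A, MTL1, PMS1 and TEF1 leaned to the same allele in both hybrids.

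Calls of fewer reads were less firm. COS12, a subtelomeric gene of the COS family, had 123 SK1 reads and 0 S96 reads in pool A and 108 and 5 in pool B, a read ratio of 46.2 to 1 (exact 95% interval 19.5 to 144). Its adjusted p of 0.0521 became 0.33 without pool A. ATX2, a Golgi manganese transporter, and YIL057C, a gene of unknown function, each had 89 SK1 and 13 S96 reads in pool B, with 173 and 127 SK1 reads and 0 S96 reads in pool A. FMP16, a mitochondrial protein, had 187 SK1 and 32 S96 reads in pool A and 118 and 0 in pool B. Among transcripts with 30 to 100 reads per pool 2.25% were called, against 16.1% among those with 1000 to 3000 and 12.2% among those with more.

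**Figure D2:**
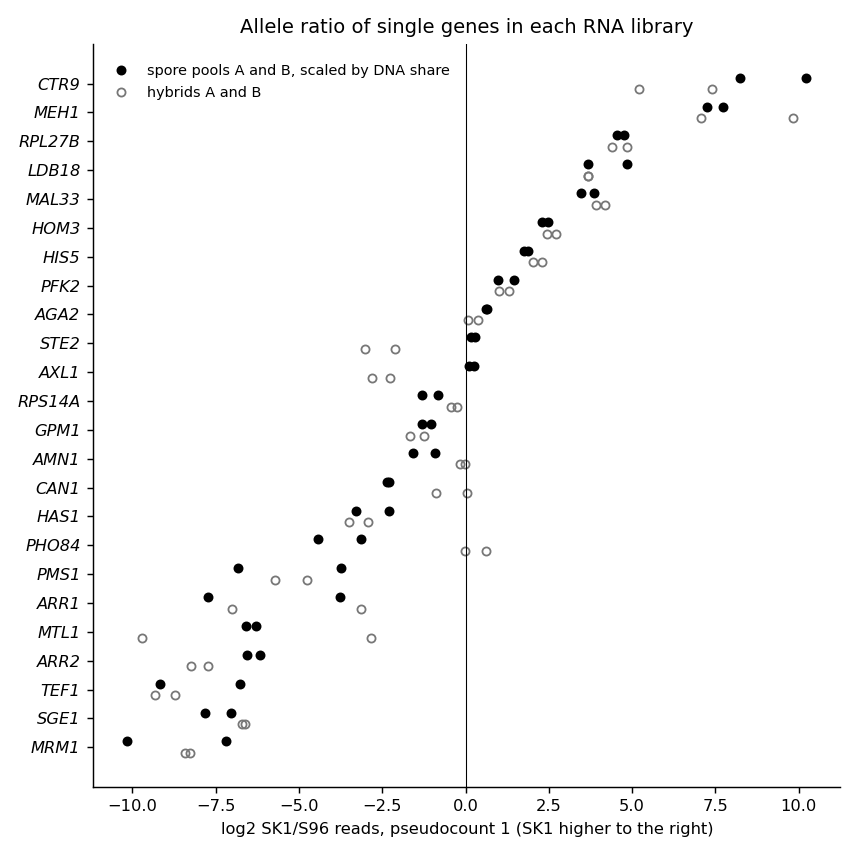
Log2 ratio of SK1 to S96 reads for 24 genes named in the text, in spore pools A and B scaled by DNA share (filled points, upper in each row) and in hybrids A and B (open points, lower in each row), with a pseudocount of 1. Pools and hybrids lie apart in the rows of PHO84, CAN1, STE2 and AXL1, which the test of pools against hybrids called. RPS14A was also called, at a smaller difference of -0.73. Pools and hybrids also lie apart in some rows that the test did not call, among them AMN1 and CTR9 (for CTR9, difference 3.84, adjusted p 0.39).

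The right end of chromosome XVI held a run of transcripts with almost no SK1 reads. Within 25000 bp of that end 13 transcripts were tested, of which 7 were called for S96 and 2 for SK1. ARR1, ARR2 and ARR3, the regulator, the arsenate reductase and the arsenite exporter of the arsenic resistance cluster, had 5, 5 and 30 SK1 reads and 1145, 516 and 407 S96 reads in pool A. In pool B they had 42, 3 and 0 SK1 reads and 527, 260 and 160 S96 reads. SGE1, a multidrug efflux pump, had 1 SK1 and 410 S96 reads in pool A and 1 and 238 in pool B, a read ratio of 324 S96 to 1 SK1 (exact 95% interval 89.3 to 2681). SUT430, a stable unannotated transcript of the same stretch, had 1 SK1 and 740 S96 reads in pool A and 0 and 429 in pool B. The neighbouring genes on the centromere side ran the other way. OPT2, an oligopeptide transporter, had 1862 SK1 and 856 S96 reads in pool A and 1554 and 478 in pool B, and HPA2, a histone acetyltransferase homologue, had 1953 and 647 in pool A and 2185 and 491 in pool B. The DNA share was 52.5% SK1 for all of these transcripts, carried over from the nearest part of the chromosome with enough SNPs.

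Coding transcripts within 25000 bp of any chromosome end were called in 27.05% of cases (14 for SK1 and 19 for S96 of 122), against 11.7% farther in (222 and 355 of 4938). MAL33, an activator of maltose genes near the right end of chromosome II, had 3728 SK1 and 282 S96 reads in pool A and 3603 and 357 in pool B (log2 ratio 3.67, SE 0.27, adjusted p 4.88e-15). The hybrids held 3380 SK1 and 224 S96 reads in hybrid A and 4534 and 248 in hybrid B. HMRA1, the silent copy of a mating type gene on chromosome III, was uneven between libraries, with 630 SK1 and 7 S96 reads in pool A and 80 and 20 in pool B. The hybrids held 328 and 3 reads in hybrid A and 8 and 59 in hybrid B, and without pool A the adjusted p of HMRA1 was 0.91.

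The gene lists described next were read against the share of all transcripts called, which was 11.8%, with 4.57% for SK1 and 7.24% for S96. Cytosolic ribosomal protein genes, which are mostly present as near-identical pairs in yeast, had 14 members called for SK1 and 6 for S96 of 131 tested, or 15.3%. The counts were 19 and 5 without the mapping bias correction and 7 and 4 without the library term. RPL27B had 31817 SK1 and 1454 S96 reads in pool A and 46490 and 1828 in pool B (log2 ratio 4.66, SE 0.12, adjusted p 4.49e-32). RPL32 had 10186 SK1 and 1167 S96 reads in pool A and 9693 and 823 in pool B (log2 ratio 3.27, SE 0.18). RPL39 had 35056 SK1 and 8696 S96 reads in pool A and 47680 and 14440 in pool B (log2 ratio 1.89, SE 0.10). None of the 50-base words of these 3 genes recur in the genome.

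On the S96 side of the ribosomal list, RPL11A had 178 SK1 and 23101 S96 reads in pool A and 286 and 19478 in pool B, but 60.9% of its 50-base words recur. RPL43B had 116 and 1699 reads in pool A and 192 and 2779 in pool B with no recurring word (log2 ratio -4.12, SE 0.33, adjusted p 1.16e-13). Of the 20 called members 13 held recurring words, and in 5 they made up over 10%. The median log2 ratio of the list was 0.02. Of the 14 SK1 calls, 7 held when either pool was left out, and of the 6 S96 calls 5 did. Ribosome biogenesis genes, which build ribosomes but are not part of them, were called in 3 and 2 of 133 cases, or 3.76%. HAS1, an RNA helicase of this list, had 1700 SK1 and 7749 S96 reads in pool A and 450 and 4050 in pool B (log2 ratio -2.78, SE 0.22, adjusted p 5.11e-14). EBP2, a nucleolar processing factor, had 5513 SK1 and 2428 S96 reads in pool A and 3421 and 1482 in pool B (log2 ratio 1.20, SE 0.20, adjusted p 1.50e-05).

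Genes of cell wall proteins and their synthesis were called for SK1 in 1 case and for S96 in 8 of 47, or 19.1% against 11.8% of all transcripts. CRH1, a transglycosylase that joins chitin to glucan, had 267 SK1 and 20887 S96 reads in pool A and 536 and 14437 in pool B (log2 ratio -5.45, SE 0.21, adjusted p 6.42e-25). KRE6, a protein of beta-glucan synthesis, had 107 SK1 and 3612 S96 reads in pool A and 283 and 2461 in pool B. TIP1, a wall mannoprotein, had 485 SK1 and 10082 S96 reads in pool A and 519 and 6453 in pool B. The SK1 call was MNN4, a regulator of mannosyl phosphorylation, with 3891 SK1 and 1712 S96 reads in pool A and 2364 and 1248 in pool B (log2 ratio 1.36, SE 0.23, adjusted p 2.16e-05). Of the 8 S96 calls 5 held when either pool was left out, and the counts were 2 and 6 without the mapping bias correction.

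Among flocculins and other adhesion genes 1 was called for SK1 and 4 for S96 of 11, or 45.5% of a small list against 11.8% of all transcripts. FIG2, a cell wall adhesin of mating cells, had 400 SK1 and 2037 S96 reads in pool A and 373 and 1253 in pool B (log2 ratio -2.43, SE 0.33, adjusted p 2.83e-07). In pool B its lead of S96 was smaller than in pool A. FIG2 alone among the 4 held when either pool was left out. The SK1 call was TEC1, a transcription factor of filamentous growth, with a log2 ratio of 0.79 (SE 0.21, adjusted p 0.00901), which became 0.30 without pool A and 0.29 without pool B.

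**Figure D3:**
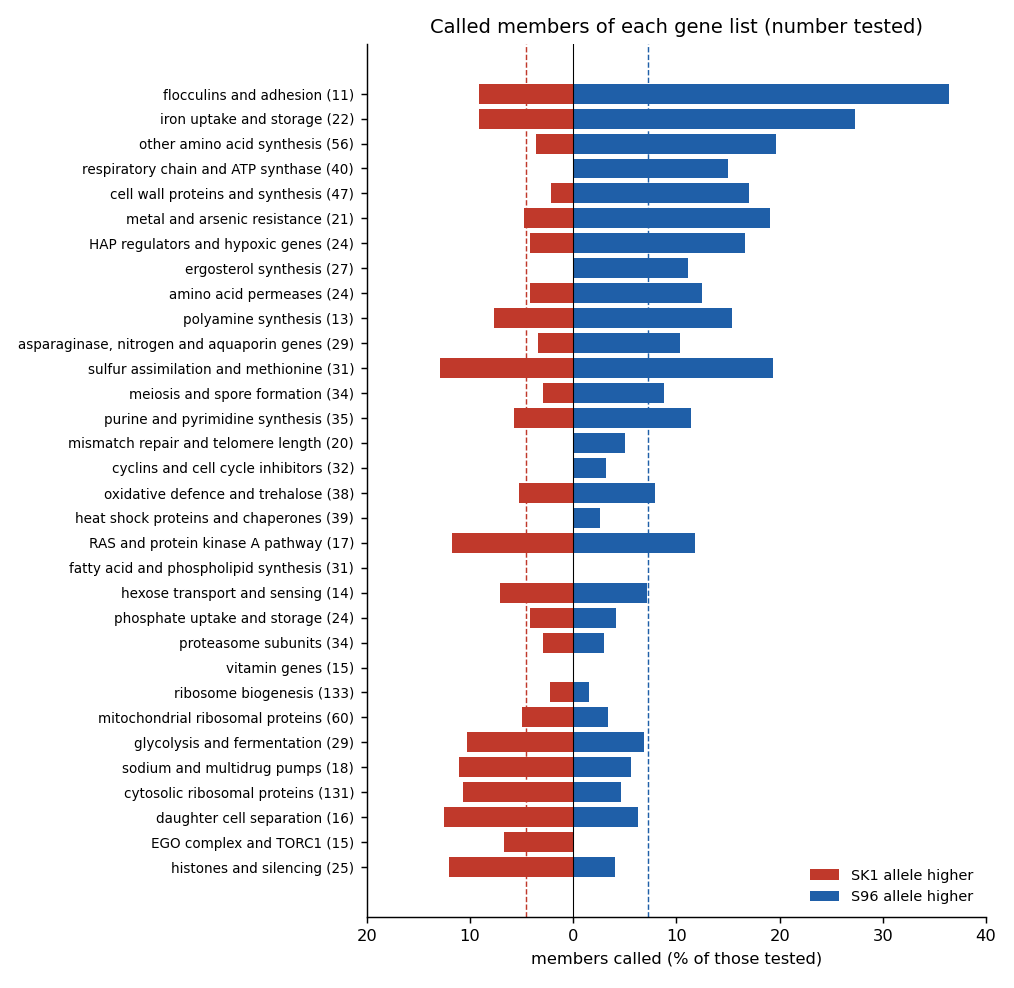
Share of the tested members of each gene list called for SK1 (red, to the left) and for S96 (blue, to the right) in the scaled comparison, in percent, with the number tested in parentheses, for lists with at least 10 tested members. Dashed lines mark the shares over all transcripts, 4.57% for SK1 and 7.24% for S96.

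Amino acid synthesis outside the sulfur pathway was called for SK1 in 2 cases and for S96 in 11 of 56, or 23.2% against 11.8% of all transcripts. The 11 took in ARO8 and ARO9, the aromatic aminotransferases, LYS2, ILV3, SER2, TYR1 and the asparagine synthetase gene ASN1. ARO8 had 4796 SK1 and 11522 S96 reads in pool A and 5309 and 15013 in pool B (log2 ratio -1.41, SE 0.14, adjusted p 2.83e-11). ASN1 had 11292 SK1 and 17766 S96 reads in pool A and 10842 and 18932 in pool B, with a log2 ratio of -0.69 (SE 0.11, adjusted p 1.38e-05). The SK1 calls were HIS5, histidinol-phosphate aminotransferase, and ARO3, an entry enzyme of aromatic synthesis. HIS5 had 4781 SK1 and 1569 S96 reads in pool A and 3808 and 1342 in pool B (log2 ratio 1.82, SE 0.21, adjusted p 5.73e-09). ARO3 had 9463 SK1 and 5432 S96 reads in pool A and 9620 and 4771 in pool B (log2 ratio 1.34, SE 0.15, adjusted p 8.90e-10). Of the 11 S96 calls 5 held when either pool was left out. Without the library term 2 SK1 and 2 S96 calls remained in number.

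ILV6, THR4 and HIS4 of this list lie on chromosome III and changed direction with the scaling. ILV6, the regulatory subunit of acetolactate synthase, had 16762 SK1 and 7458 S96 reads in pool A and 17995 and 13727 in pool B. Its log2 ratio was 0.78 before scaling and -0.76 after it, at a DNA share of 74.4% SK1. THR4 had a ratio of 1.13 before and -0.68 after scaling, and HIS4 of 0.15 and -0.73. Without pool B the adjusted p was 0.23 for THR4 and 0.84 for HIS4.

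Sulfur assimilation and methionine genes were called for SK1 in 4 cases and for S96 in 6 of 31, or 32.3% against 11.8% of all transcripts. Of these calls, 1 for SK1 and 2 for S96 held when either pool was left out. The calls were 2 and 3 without pool A, 1 and 4 without pool B, 2 and 2 with each pool's own DNA share, and 1 and 1 without the library term. HOM3, aspartate kinase at the head of methionine and threonine synthesis, had 2704 SK1 and 479 S96 reads in pool A and 2633 and 531 in pool B (log2 ratio 2.39, SE 0.28, adjusted p 4.29e-09). MMP1, the S-methylmethionine permease, had 269 SK1 and 1247 S96 reads in pool A and 227 and 1520 in pool B (log2 ratio -2.55, SE 0.37, adjusted p 7.95e-07). It is also 1 of 3 S96 calls among 24 amino acid permeases, beside CAN1 and GAP1, the general permease with 120 SK1 and 579 S96 reads in pool A and 215 and 333 in pool B. GAP1 had an adjusted p of 0.160, or 0.95 without pool A. The only SK1 call there was UGA4, the permease for gamma-aminobutyrate, whose adjusted p of 0.124 became 0.65 without pool A. Of the permeases 16.7% were called.

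Iron uptake and storage genes had 2 calls for SK1 and 6 for S96 of 22, or 36.4% against 11.8% of all transcripts. The counts were 4 and 4 without the mapping bias correction, 1 and 4 with each pool's own DNA share, and 0 and 1 without the library term. The S96 calls were the mannoprotein genes FIT2 and FIT3, the transporter genes FTR1, FTH1 and FET4, and FET3, the ferroxidase of high-affinity uptake. FIT3 had 429 SK1 and 2582 S96 reads in pool A and 632 and 2129 in pool B (log2 ratio -1.94, SE 0.29, adjusted p 1.97e-06). FET3 had 10428 SK1 and 15837 S96 reads in pool A and 11242 and 15739 in pool B (log2 ratio -0.66, SE 0.12, adjusted p 4.24e-05). The SK1 calls were HMX1, heme oxygenase, and FET5, a vacuolar multicopper oxidase with 3143 SK1 and 1556 S96 reads in pool A and 2649 and 1417 in pool B (log2 ratio 0.94, SE 0.23, adjusted p 0.00428). FIT2, FIT3, FET3, HMX1 and FET5 held when either pool was left out.

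Genes of the respiratory chain and ATP synthase were called for S96 in 6 cases and for SK1 in 0 of 40, or 15.0% against 11.8% of all transcripts. When each pool was scaled by its own DNA share the calls were 1 for SK1 and 1 for S96, and without the library term 0 and 0. NDE1, an external NADH dehydrogenase, had 4025 SK1 and 6109 S96 reads in pool A and 3304 and 5143 in pool B (log2 ratio -0.68, SE 0.17, adjusted p 0.00412), and it alone of the 6 held when either pool was left out. Among 24 regulators and targets of oxygen and heme control 1 was called for SK1 and 4 for S96, or 20.8%. CYC8, the corepressor partner of Tup1, had 1481 SK1 and 6810 S96 reads in pool A and 870 and 6093 in pool B (log2 ratio -1.94, SE 0.19, adjusted p 8.56e-11). TIR3, a wall mannoprotein of anaerobic cells, had 1526 SK1 and 3075 S96 reads in pool A and 1221 and 3721 in pool B (log2 ratio -1.18, SE 0.23, adjusted p 0.000209).

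Glycolysis and fermentation held 3 SK1 and 2 S96 calls of 29, or 17.2% against 11.8% of all transcripts, and 1 and 1 without pool A. PFK2, the beta subunit of phosphofructokinase, had 6211 SK1 and 2060 S96 reads in pool A and 5234 and 2429 in pool B (log2 ratio 1.21, SE 0.18, adjusted p 2.78e-06). GPM1, phosphoglycerate mutase, ran the other way with 18360 SK1 and 40484 S96 reads in pool A and 23150 and 60808 in pool B (log2 ratio -1.17, SE 0.09, adjusted p 1.12e-14). MIG1, the glucose repressor, had 3811 SK1 and 1564 S96 reads in pool A and 2133 and 996 in pool B (log2 ratio 1.24, SE 0.24, adjusted p 0.000160). MVD1, an early enzyme of ergosterol synthesis, had 2609 SK1 and 6357 S96 reads in pool A and 2878 and 8325 in pool B (log2 ratio -1.35, SE 0.17, adjusted p 2.24e-08). Among 27 genes of that list 3 S96 and 0 SK1 calls were made (11.1%), of which 1 held when either pool was left out. PRS3, which makes the phosphoribosyl pyrophosphate of nucleotide synthesis, had 3925 SK1 and 9348 S96 reads in pool A and 3325 and 10452 in pool B (log2 ratio -1.63, SE 0.15, adjusted p 1.48e-11). Purine and pyrimidine synthesis had 2 SK1 and 4 S96 calls of 35, metal and arsenic resistance 1 and 4 of 21, and meiosis and spore formation 1 and 3 of 34. Mitochondrial ribosomal proteins had 3 and 2 of 60, proteasome subunits 1 and 1 of 34, cyclins and cell cycle inhibitors 0 and 1 of 32, and histones and silencing genes 3 and 1 of 25. Few of the calls in these 7 lists were stable: when either pool was left out 0 SK1 calls held in any of them, and 1 S96 call each held for purines and pyrimidines, metal and arsenic resistance, meiosis and mitochondrial ribosomal proteins. In the metal and arsenic list 19 of the 21 genes could be fitted with a pool left out. ARR2 and ARR3, both called for S96, could not be fitted, so whether their calls hold was not tested. Fatty acid and phospholipid synthesis had 0 calls among 31 genes and the vitamin genes 0 among 15, while heat shock proteins and chaperones had 1, the Hsp90 cochaperone gene CDC37 on the S96 side, among 39.

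Mating genes, whose summed levels were far above the hybrids in the pools, were called in 1 of 6 cases, for SK1, among genes specific to a cells and in 0 of 9 among haploid-specific genes. Over all transcripts 11.8% were called, and lists of this size are too small to be read against that share. AGA2, the binding subunit of a-agglutinin, had 19075 SK1 and 12791 S96 reads in pool A and 9064 and 5997 in pool B (log2 ratio 0.64, SE 0.12, adjusted p 0.000138). Without pool A its adjusted p was 0.25. STE2, the alpha-factor receptor, had 15303 SK1 and 12497 S96 reads in pool A and 8431 and 7452 in pool B (log2 ratio 0.23, SE 0.12, adjusted p 0.295).

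Without scaling by the DNA share, 508 transcripts were called for SK1 and 632 for S96, or 7.59% and 9.45% of 6689, together 1140 (17.0%). The calls for the same allele in both versions were 654, which is 82.8% of the scaled and 57.4% of the unscaled calls. Called only with scaling were 121 and only without it 471. A further 15 turned from SK1 without scaling to S96 with it, and all 15 lie on chromosome III at DNA shares of 72.4% to 92.8% SK1. RPS14A, a ribosomal protein gene of that stretch with a DNA share of 88.3% SK1, had 107527 SK1 and 25303 S96 reads in pool A and 185135 and 61071 in pool B. Its log2 ratio was 1.84 without scaling and -1.08 with it (SE 0.07, adjusted p 2.36e-16), and -0.59 when each pool was scaled by its own share (adjusted p 0.19).

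**Figure D4:**
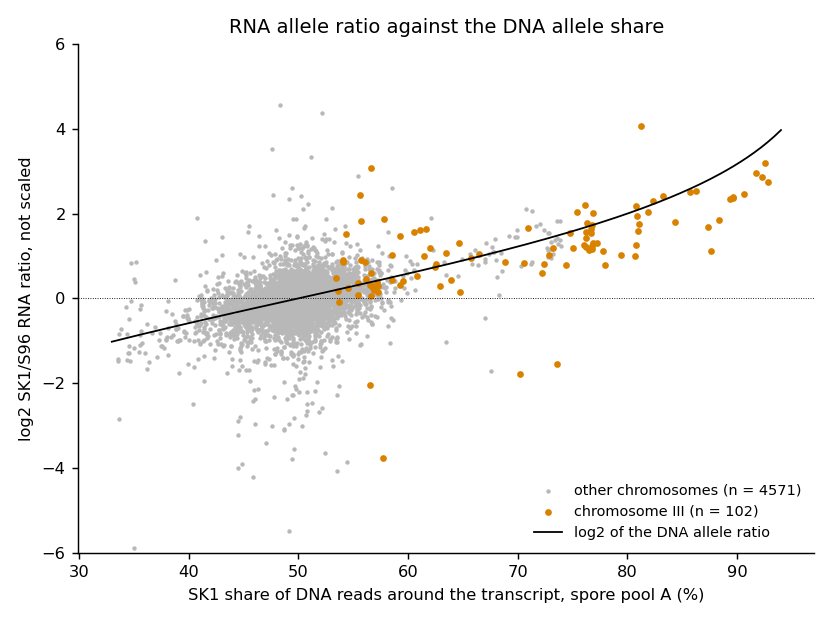
Unscaled log2 ratio of SK1 to S96 RNA over both spore pools (y axis, points beyond -6 and 6 not drawn) against the SK1 share of DNA reads around the transcript in pool A (x axis, percent), for transcripts with at least 1000 reads per pool. Chromosome III (orange) reaches DNA shares above 80%, and its RNA ratios rise with the log2 DNA ratio (line).

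Chromosome III, which carries the mating type locus, held the SK1 sequence in most cells of the pools. The DNA share of its tested transcripts had a median of 72.4% SK1 and ran to 93.3%, against a range from 33.6% to 93.3% over all transcripts and a median of 50.0%. Unscaled, 88 transcripts were called for SK1 and 5 for S96 of 155, and the median log2 ratio was 1.28 in pool A and 0.97 in pool B. Scaled, 13 were called for SK1 and 27 for S96, and the medians were -0.08 and -0.28. In the hybrids the medians were -0.03 and -0.08. The scaled calls were 9 and 12 with each pool scaled by its own share, and 19 and 13 with a share read from neighbouring RNA. The lead of S96 on this chromosome therefore depends on the source of the share.

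Counts on some other chromosomes also changed with the scaling. Chromosome IV had 33 SK1 and 147 S96 calls of 865 unscaled and 36 and 58 scaled. Chromosome XV had 91 and 46 unscaled and 29 and 40 scaled. On chromosome XIV the calls were 13 and 51 unscaled and 33 and 15 scaled, but 6 and 15 when each pool was scaled by its own share. There the median DNA share was 44.5% SK1 in pool A and 49.2% in pool B, and the median scaled ratio was -0.04 in pool A and 0.16 in pool B. SWS2, a mitochondrial ribosomal protein gene of chromosome XIV at a DNA share of 35.0% SK1, was called only with scaling. It had 6895 SK1 and 3998 S96 reads in pool A and 4806 and 4329 in pool B (log2 ratio 1.36, SE 0.17, adjusted p 5.16e-08). With each pool's own share its ratio was 0.69 (adjusted p 0.49).

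**Figure D5:**
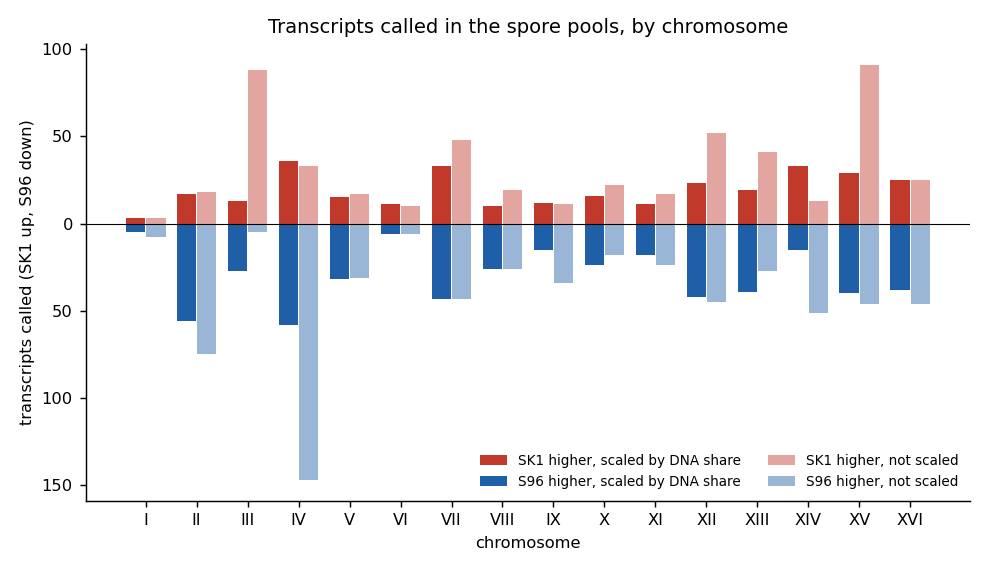
Number of transcripts called for SK1 (red, upward) and for S96 (blue, downward) on each chromosome, scaled by DNA share (full colour, left bar) and not scaled (pale, right bar). On chromosome III the 88 SK1 calls without scaling stand beside 13 with it.

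By class of transcript, 236 SK1 and 374 S96 calls were made among 5060 coding transcripts (12.1%). Stable unannotated transcripts had 32 and 58 calls of 723 (12.4%), and cryptic unstable transcripts, which are shorter lived and less deeply covered here, 19 and 22 of 626 (6.55%). Coding genes with no SNP of the cross in the gene span were called in 19.5% of 257 cases, against 11.6% of 4672 with at least 1 SNP. The 2 groups also differed in depth, with medians of 1284.5 and 3541 reads per pool, and the share called varied with depth. A SNP in the 300 bases before the gene was present in 83.5% of coding genes called for SK1, 81.8% of those called for S96 and 81.0% of those not called.

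In hybrids the called transcripts mostly leaned to the same allele. Of 302 SK1 calls that could be fitted in the hybrids, 232 were above 0 in both hybrids, 15 were below 0 in both and 55 were split, against 28.8% of all tested transcripts above 0 in both. Of 482 S96 calls 379 were below 0 in both hybrids, 22 above and 81 split, against 34.0% of all transcripts below 0 in both. The test of the pool ratio against the hybrid ratio called 7 of 6607 transcripts (0.106%), 4 towards SK1 (0.0605%) and 3 towards S96 (0.0454%) in the pools.

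STE2 and AXL1 were level in the pools and leaned to S96 in the hybrids. Their levels in the pools were 57.4 times (STE2) and 3.09 times (AXL1) those in the hybrids. STE2 had 43 SK1 and 189 S96 reads in hybrid A and 43 and 356 in hybrid B, and its pool ratio was higher by 2.85 (SE 0.27, adjusted p 9.01e-05). AXL1, a protease of a-factor processing whose annotated transcript does not hold the whole gene in R64, had 1428 SK1 and 1457 S96 reads in pool A and 1231 and 1126 in pool B. It had 128 and 625 in hybrid A and 81 and 577 in hybrid B, a difference of 2.72 (SE 0.47, adjusted p 0.0527). AGA1, the anchor subunit of a-agglutinin, had 6035 SK1 and 7523 S96 reads in pool A and 4042 and 5659 in pool B. The hybrids held 405 and 1187 in hybrid A and 493 and 1651 in hybrid B, a difference of 1.28 (SE 0.24, adjusted p 0.0861). YGP1, a secreted glycoprotein of stationary cells that like AGA1 was named after its values were seen, had 3181 SK1 and 3107 S96 reads in pool A and 2456 and 2020 in pool B. The hybrids held 213 and 660 in hybrid A and 374 and 801 in hybrid B, a difference of 1.76 (SE 0.35, adjusted p 0.141). Without pool A the differences of AXL1, AGA1 and YGP1 were no longer called, while that of STE2 was. Those of AXL1 and YGP1 were also lost without pool B. With each pool's own DNA share the adjusted p was 0.55 for AGA1 and YGP1, 0.18 for AXL1 and 0.044 for STE2.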

How the data were processed

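RNA of 2 spore pools and 2 hybrids and genomic DNA of the same samples were analysed. The authors prepared strand-specific total RNA libraries, mapped read pairs jointly to both genomes with GSNAP, kept pairs specific to 1 strain and counted them with HTSeq 0.5.4p5 inside annotated transcripts. The deposited values are raw counts per transcript, allele and lane, and raw counts of DNA reads per SNP and allele, on R64. Pairs on no transcript (36.4% and 26.8% in pools A and B) were left out. The DNA files do not say which allele each column holds, and this was settled from the RNA ratios of the pools, so that the direction in which RNA and DNA shares go together is not independent.

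Lanes were summed and the DNA share was smoothed with locfit 1.5.9.12 (window 28000 bp, at least 10 reads per SNP, 1.87 percentage points of mapping bias added). The share of pool A was used for both pools, since pool B had 5642 SNPs with 10 reads. Near chromosome ends it was carried over from the nearest stretch with enough SNPs. Testing needed 1 or more reads from both alleles over the pools and a scaled count averaging 10 or more, and was done with edgeR 4.0.16 in R 4.3.3 (quasi-likelihood, TMM size factors, terms for library and allele, 1 residual degree of freedom), which was checked on simulated data. All adjusted p-values are from this test, with Benjamini-Hochberg adjustment over all transcripts. Both alleles of a pool come from 1 library, so the library term pairs them. Tests against the hybrids used the allele by group term over 4 libraries. DESeq2 1.42.0 and limma 3.58.1 were alternatives, beside other normalizations, filters, thresholds, DNA shares and each library left out. Sequence and SNP features were computed in Python 3.11.15 with pandas 2.3.3.

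The members and the 38 gene lists were chosen with earlier results of these data known. Named by rule were the 8 coding and 2 other transcripts with the highest and lowest ratio among calls with at least 100 reads per pool and 1 direction in both pools, the called member with the largest ratio of each list and direction, the 3 largest calls made only with or only without scaling, calls against the hybrids that were also calls in the pools, genes the study names, and markers. Other genes named were chosen after their values were seen. Read shares and ratios carry exact intervals of counting error only, since PCR copies are not independent molecules.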

Additional observations from a re-analysis of the deposited data

Results flagged for a closer look

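The ratio of SK1 to S96 RNA differed between the spore pools and the hybrids, by edgeR's test of that difference, for 7 genes. The log2 ratio of the pools minus that of the hybrids was 2.85 for STE2, 2.72 for AXL1, 1.76 for YGP1, 1.28 for AGA1, -0.73 for RPS14A, -1.91 for CAN1 and -4.08 for PHO84. RPS14A lies where the DNA share is 88.3% SK1 and had 71621 SK1 and 85545 S96 reads in hybrid A and 65076 and 88145 in hybrid B. With each pool scaled by its own DNA share its difference was -0.24 (adjusted p 0.98). PHO84 and STE2 were called whichever library was left out, with adjusted p-values of up to 0.000185 for PHO84 and 0.00261 for STE2.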

How the results depend on the processing

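The 790 scaled calls became 441 (156 for SK1 and 285 for S96) with each pool's own DNA share, 483 at an FDR under 0.05 and 396 to 582 with a pool left out. Without the replicate block, which here is the library term, they were 143 (47 and 96), and limma on the log2 ratios of the 2 pools called 0, with 781 at an unadjusted p under 0.05. DESeq2 called 815, of which 743 were shared. A share read from neighbouring RNA gave 748 (352 and 396). The 1140 unscaled calls became 266 without the replicate block, 751 at an FDR under 0.05, 623 to 837 with a pool left out and 0 with limma (994 at an unadjusted p under 0.05). The 7 calls between pools and hybrids became 54 with DESeq2, 160 without scaling, 3 with each pool's own share, 3 at an FDR under 0.05, 0 with limma (383 at an unadjusted p under 0.05) and 8 to 49 with a library left out. The cause was not tested. RPS14A turned to 1.84 without scaling, and ILV6, THR4 and HIS4, which the rule did not name, turned to 0.78, 1.13 and 0.15. The rule named 99 transcripts, some of which were not called in the main fit. Of these, 47 were no longer called without the replicate block and 27 with each pool's own share. The size factor, count filter, smoothing window and chromosome III alternatives kept each count within 1.5 times. With 2 pools and 1 residual degree of freedom, and only 7 of 311 transcripts with 30 to 100 reads per pool called, small differences at low depth were not detectable.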
